A study of Homo sapiens with 24 samples.

Results

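The proteasome genes described here are 32 genes that encode subunits of the proteasome and of its activators. They were taken by name from a list of subunits, by a rule with no threshold on measured values, out of 27431 gene symbols in 3 genome-wide tables. All 32 were found. They comprise 13 genes of the core particle (PSMA1 to PSMA7 of the alpha rings, and PSMB1, PSMB2, PSMB4, PSMB5, PSMB6 and PSMB7 of the beta rings), 9 of the base, 7 of the lid and 3 of the ring-shaped activators. RNA was sequenced in human breast carcinoma lines with knockdown of TFAP2C, which encodes the transcription factor AP-2gamma, and the stated aim was to find genes through which it acts on growth and invasion. The groups used, of 3 samples each, were SKBR3 with TFAP2C siRNA and SKBR3 with a negative control siRNA, HCC1954 with the same TFAP2C siRNA and with that negative control siRNA, and HCC1954 with a stable lentiviral TFAP2C shRNA (TRCN0000019745) and with a control shRNA (SHC002). Transient transfection lasted 72 to 96 h, and cells were at passages between 5 and 10. The shRNA cells are described as clones, without a number of clones, and the submitters did not authenticate the lines. A table of 68 selected genes from a further line, HCC1569, held 0 of the 32.

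The proteasome is the protease that degrades proteins tagged with ubiquitin. Its barrel-shaped core particle is built from alpha rings, which gate the entrance, and beta rings, in which PSMB5, PSMB6 and PSMB7 carry the chymotrypsin-like, caspase-like and trypsin-like active sites. A regulatory particle caps the barrel: its base holds the ATPases PSMC1 to PSMC6, which unfold the substrate, and the scaffold subunits PSMD1 and PSMD2, and its lid holds PSMD14, the enzyme that cuts ubiquitin off. The subunits are made in stoichiometric amounts, and their genes are known to be induced together by the transcription factor NRF1 (gene NFE2L1) when proteasome activity is inhibited. PSME1 and PSME2 form an interferon-inducible cap that opens the core without ubiquitin or ATP, and PSME3 forms a nuclear one.

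Levels are FPKM, which counts sequenced fragments relative to transcript length and to the mapped total, and so is a level per length. The authors' files give 1 FPKM per transcript and group with the 3 samples pooled, so no level has a spread between replicates. A gene's level is the sum over its RefSeq transcripts, and a log2 ratio is knockdown over control of such sums. A gene is said to rise or fall only where the q-value in the authors' deposited table was under 0.05 for the transcript that stands for the gene, the one whose FPKM averaged highest across the 6 groups. Separate cultures are not stated for the replicates, so these q-values measure a spread between samples that may be technical. In bulk RNA a change in the kinds of cells present and a change in RNA per cell cannot be told apart.

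The labels were checked on TFAP2C, which fell in all 3 comparisons: to 53.9 FPKM with siRNA against 157 with control siRNA in SKBR3, to 22.0 against 92.4 in HCC1954, and to 3.46 FPKM with shRNA against 81.0 with control shRNA. ERBB2, the HER2 gene, stood at 20.8 FPKM with TFAP2C shRNA and 1525 with control shRNA, the epithelial keratin gene KRT7 at 0.55 and 639 FPKM, and CDH1, the gene of E-cadherin, at 20.7 and 149 FPKM, and all 3 fell. KRT19, another epithelial keratin gene, was at 634 and 19.9 FPKM and rose. Of 9 epithelial markers, which include these 4 genes, 7 fell and 2 rose with shRNA. These were 77.8% and 22.2%, beside 39.2% and 36.3% of all tested symbols, 75.4% in either direction. The other rise was that of EPCAM (q = 0.000121 in the authors' deposited table). Of the 9 markers 6 reached 1 FPKM with TFAP2C shRNA, with a summed level of 1950 FPKM, against 9 and 4404 FPKM with control shRNA. ERBB2 had the highest level of the 9 with control shRNA. In the siRNA groups the summed level of these markers lay between 6255 and 9484 FPKM. CDH1 was under 0.1 FPKM in both SKBR3 groups, in which 6 to 7 of the 9 markers reached 1 FPKM. The summed level of 6 fibroblast markers was at most 1.96 FPKM in any group, and that of 5 leukocyte markers lay between 4.73 and 38.8 FPKM, with 1 or 2 of them at 1 FPKM or more in each group. Most of that sum was CD68, at 36.6 and 29.5 FPKM in SKBR3 with TFAP2C and control siRNA, 9.29 and 8.15 FPKM in HCC1954 with TFAP2C and control siRNA, and 4.64 and 6.15 FPKM with TFAP2C and control shRNA. PTPRC, the pan-leukocyte marker, was at most 0.0694 FPKM in any group. Of the endothelial markers PECAM1 alone reached 1 FPKM, with 18.5 and 27.0 FPKM in HCC1954 with TFAP2C and control siRNA, and with 0.018 FPKM in TFAP2C shRNA and 11.6 FPKM in control shRNA cells, and it fell in both comparisons. Whether the shRNA groups differ by more than the shRNA was not tested.

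Transient knockdown left the proteasome genes close to their control levels in both lines. In SKBR3, 0 of 32 tested genes rose and 1 fell, against 12.3% and 21.0% of all 9903 tested symbols that rose and fell, 33.3% in either direction. At an unadjusted p under 0.05 there were 2 of the 32, counted by the transcript that stands for each gene. Another transcript of PSMA6 and another of PSME1 also lay under that limit, and neither had q under 0.05. For PSMA6 that other transcript held most of the signal, 56.6 FPKM with TFAP2C siRNA and 47.6 FPKM with control siRNA. The transcript that stands for PSMA6 was at 2.78 and 1.75 FPKM. The gene that fell was PSMA7, an alpha-ring subunit, at 156 FPKM with TFAP2C siRNA against 184 FPKM with control siRNA, a log2 ratio of -0.23 (q = 0.0474 in the authors' deposited table). The other 31 genes had log2 ratios between -0.26 (PSMD2) and 0.32 (PSMC6), and neither of these was called. The middle of the distribution was narrow: the quartiles of the 32 log2 ratios were -0.10 and 0.10, against -0.34 and 0.18 over 11650 symbols with at least 1 FPKM in both groups. Their median was -0.03, beside -0.08 over those symbols. Here and below the background was not matched for level. The lowest member stood at 8.55 FPKM with control siRNA, so the 2 spreads are not like for like. By part, the median log2 ratio was 0.01 for the core particle, -0.06 for the base, -0.03 for the lid and 0.05 for the activators. Dividing each group by its summed FPKM instead adds 0.12 to every log2 ratio in SKBR3 and makes the medians of base and lid positive.

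With siRNA in HCC1954, 0 of 31 tested genes rose or fell, where 2.31% of 10773 tested symbols rose and 0.965% fell, 3.28% in all. At an unadjusted p under 0.05 there were 4 among the 31. The log2 ratios of all 32 lay between -0.37 and 0.29, with a median of 0.00, beside -0.01 over 12337 expressed symbols. The ends of that range were PSME2, at 118 FPKM with TFAP2C siRNA and 153 FPKM with control siRNA, and PSMA4, at 140 and 114 FPKM. The active-site genes hardly differed between the groups: PSMB5 stood at 188 and 189 FPKM, PSMB6 at 136 and 148 FPKM, and PSMB7 at 113 and 120 FPKM. The base ATPase genes had log2 ratios between -0.05 and 0.12. PSMD12, a lid subunit gene, was not tested because its signal lay in another transcript, which was tested and not called. A call that was not made does not show that a gene was unchanged.

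**Figure D1:**
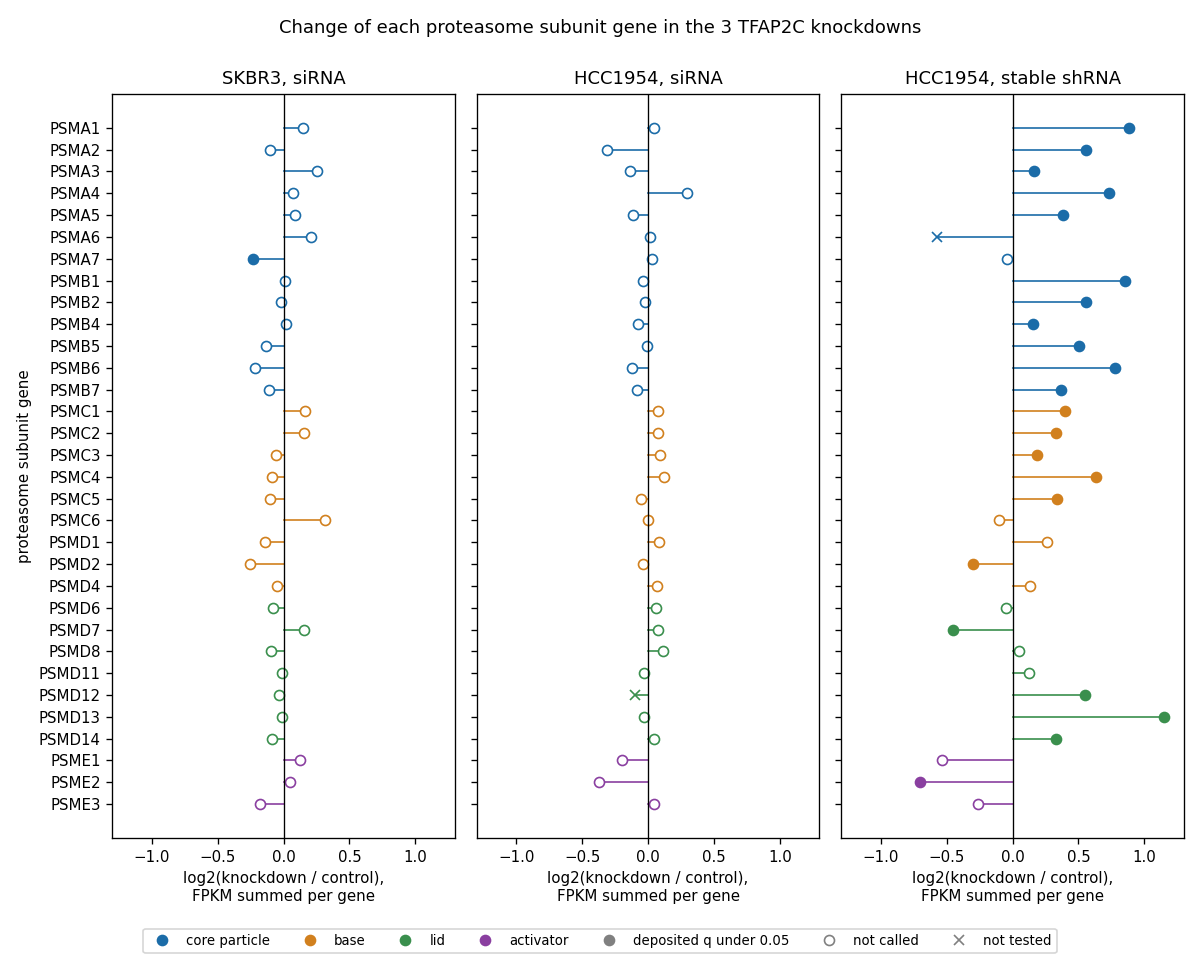
Each row is 1 proteasome subunit gene and each panel 1 comparison. The horizontal axis is the log2 ratio of knockdown over control FPKM summed per gene, colours mark the part of the proteasome, filled points have a deposited q under 0.05, open points were not called and crosses were not tested. The siRNA panels lie between -0.37 and 0.32 with 1 filled point, and the shRNA panel spreads between -0.70 and 1.15 with 22 filled points.

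Stable shRNA in HCC1954 gave a different picture by part: most core particle genes were higher, the base was mixed but mostly higher, the lid was divided and the activator genes were lower. Of 31 tested genes 19 rose and 3 fell. Over all 9564 tested symbols 36.3% rose and 39.2% fell, 75.4% in either direction. The proteasome share called, 22 of 31 or 71.0%, lay near that background, while the share that rose, 61.3%, was above the 36.3% of all symbols. Their median log2 ratio was 0.30, beside 0.00 over 11309 expressed symbols, with quartiles of -0.05 and 0.55 against -0.62 and 0.61. The median log2 ratio was 0.51 for the core particle, 0.26 for the base, 0.12 for the lid and -0.54 for the activators. Dividing by summed FPKM adds 0.10 to each and turns the sign of no called gene among the 32. The changes of the epithelial markers given above, ERBB2 among them, stand beside each of these shRNA values, and their part in the result was not tested.

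Promoter sequence was looked at because AP-2gamma binds GC-rich DNA and because most members rose with shRNA. RefSeq's promoter table (GRCh38.p14) held 27 of the 32 genes. In the 250 bases before each start, the AP-2 motif GCCNNNGGC was found in 6 of 27 promoters (22.2%), against 28.2% of 9144 promoters of symbols expressed in the shRNA groups and 19.7% of all 27305. The antioxidant response element TGACNNNGC, bound by NRF1 and NRF2, was found in 3 of 27 (11.1%), against 12.1% of the expressed and 11.0% of all promoters, and the CCAAT box in 12 of 27 (44.4%), against 36.0% and 33.0%. Both strands were searched, and a match is a description of letters only. By part, the AP-2 motif was in 1 of 9 core particle promoters in the table, 3 of 8 of the base, 2 of 7 of the lid and 0 of 3 of the activators, and the antioxidant response element in 1 of the lid (PSMD12) and 2 of the activators (PSME1 and PSME2). Shown 5′ to 3′ are those of the largest called rise of each part, PSMA1 (chr11:14520387-14520636, minus strand), PSMC4 (chr19:39970915-39971164, plus strand) and PSMD13 (chr11:236726-236975, plus strand), and of the 2 largest called falls, PSMD7 (chr16:74296564-74296813, plus strand) and PSME2 (chr14:24146611-24146860, minus strand). Capitals mark the AP-2 motif in PSMA1 and PSMD13, the CCAAT box in PSMD7 and the antioxidant response element in PSME2, and PSMC4 holds none of the 3.
PSMA1: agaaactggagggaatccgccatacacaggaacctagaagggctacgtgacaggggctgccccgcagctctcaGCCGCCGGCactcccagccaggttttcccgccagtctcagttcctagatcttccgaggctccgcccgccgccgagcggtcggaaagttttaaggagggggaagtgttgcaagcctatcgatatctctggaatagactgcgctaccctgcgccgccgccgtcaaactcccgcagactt
PSMC4: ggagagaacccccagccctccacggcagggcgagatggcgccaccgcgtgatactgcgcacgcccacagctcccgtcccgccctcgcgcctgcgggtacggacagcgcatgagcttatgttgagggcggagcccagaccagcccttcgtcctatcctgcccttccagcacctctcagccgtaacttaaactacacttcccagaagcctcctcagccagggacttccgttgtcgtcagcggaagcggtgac
PSMD13: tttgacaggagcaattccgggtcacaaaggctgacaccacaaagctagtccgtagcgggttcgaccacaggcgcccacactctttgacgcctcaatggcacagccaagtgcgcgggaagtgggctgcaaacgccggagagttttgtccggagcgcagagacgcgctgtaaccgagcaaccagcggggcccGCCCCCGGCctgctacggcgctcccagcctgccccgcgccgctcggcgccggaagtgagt
PSMD7: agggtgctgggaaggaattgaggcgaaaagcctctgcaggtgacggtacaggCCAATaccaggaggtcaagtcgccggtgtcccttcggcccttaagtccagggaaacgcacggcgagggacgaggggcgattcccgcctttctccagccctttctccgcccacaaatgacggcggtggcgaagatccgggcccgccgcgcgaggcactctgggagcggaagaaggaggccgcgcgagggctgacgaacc
PSME2: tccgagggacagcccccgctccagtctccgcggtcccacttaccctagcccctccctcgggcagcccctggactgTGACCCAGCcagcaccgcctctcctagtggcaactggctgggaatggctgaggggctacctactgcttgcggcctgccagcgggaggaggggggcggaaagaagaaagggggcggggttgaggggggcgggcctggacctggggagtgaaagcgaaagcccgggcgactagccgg

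In the alpha rings 5 of 6 tested genes rose with shRNA and 0 fell, 83.3% and 0%, beside 36.3% and 39.2% of all tested symbols. PSMA1, whose promoter is shown above, stood at 113 FPKM with TFAP2C shRNA against 61.2 FPKM with control shRNA, a log2 ratio of 0.88. PSMA4 was at 216 against 130 FPKM (0.73) and PSMA2 at 38.6 against 26.2 FPKM (0.56), each with q = 0.000121 in the authors' deposited table, which is the lowest q that table holds. The smaller rises were those of PSMA5, at 17.8 against 13.7 FPKM (q = 0.00677 in the authors' deposited table), and PSMA3, at 39.8 against 35.5 FPKM (q = 0.0461 there). The other 2 alpha-ring genes were listed lower. PSMA7, the gene that fell with siRNA in SKBR3, was at 176 against 182 FPKM and was not called. PSMA6 had 33.5 FPKM in TFAP2C shRNA cells against 49.9 FPKM in control shRNA cells, a log2 ratio of -0.58. The transcript that stands for PSMA6 was not tested there. Another of its transcripts, with 30.9 against 46.1 FPKM, had q = 0.000121 in the authors' deposited table. Counted by that transcript, 4 of 32 members fell.

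All 6 beta-ring genes rose with shRNA, beside 36.3% of all tested symbols. PSMB1, a structural beta subunit, reached the highest level of any member, 277 FPKM with TFAP2C shRNA against 154 FPKM with control shRNA, a log2 ratio of 0.85. Among the active-site subunits, PSMB6 was at 137 against 80.0 FPKM (0.78), PSMB5 at 208 against 146 FPKM (0.51) and PSMB7 at 100.1 against 77.5 FPKM (0.37). PSMB2 was at 48.4 against 32.8 FPKM (0.56), and PSMB4 had the smallest difference, 203 against 182 FPKM (0.15), with q = 0.000458 in the authors' deposited table. PSMB5 was carried by its main transcript, at 141 against 80.1 FPKM, while a second transcript stood at 61.3 against 57.7 FPKM and was not called.

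In the base 5 of 9 genes rose and 1 fell, 55.6% and 11.1%, beside 36.3% and 39.2% of all tested symbols. The ATPase genes PSMC1 to PSMC5 all rose: PSMC4 was at 46.3 FPKM with TFAP2C shRNA against 29.8 FPKM with control shRNA (0.64), PSMC1 at 26.2 against 19.9 FPKM (0.40), PSMC5 at 77.4 against 61.3 FPKM (0.34), PSMC2 at 24.1 against 19.2 FPKM (0.33) and PSMC3 at 49.4 against 43.5 FPKM (0.18). PSMC6, the last ATPase gene, was at 12.2 against 13.1 FPKM and was not called. Of the 3 non-ATPase genes of the base, 1 was called. PSMD2, a scaffold that binds ubiquitin-like shuttle proteins, fell to 94.0 against 116 FPKM, a log2 ratio of -0.30 (q = 0.0208 in the authors' deposited table). PSMD1, the other large scaffold, was at 66.2 against 55.2 FPKM, and the ubiquitin receptor gene PSMD4 at 64.6 against 58.9 FPKM, neither of them called.

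The lid was divided, with 3 of 7 genes called as rises, 1 as a fall and 3 not called. The shares that rose and fell were 42.9% and 14.3%, beside 36.3% and 39.2% of all tested symbols. The share that rose thus lay near the background. PSMD13, a structural lid subunit, had the largest log2 ratio of all members, 1.15, at 75.7 FPKM with TFAP2C shRNA against 34.1 FPKM with control shRNA. PSMD12 was at 45.6 against 31.1 FPKM (0.55) and the deubiquitinase gene PSMD14 at 92.2 against 73.2 FPKM (0.33). PSMD7, the partner with which PSMD14 forms a dimer, fell to 76.6 against 105 FPKM, a log2 ratio of -0.45, so the partners of 1 dimer were called in opposite directions. PSMD6 was at 59.3 against 61.3 FPKM, PSMD8 at 60.1 against 58.0 FPKM and PSMD11 at 51.7 against 47.5 FPKM, and none of these was called.

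All 3 activator genes were listed lower with shRNA and 1 of them was called, 33.3%, beside 39.2% of all tested symbols that fell. PSME2 fell to 5.99 FPKM with TFAP2C shRNA against 9.76 FPKM with control shRNA, a log2 ratio of -0.70 (q = 0.000237 in the authors' deposited table). Its partner gene PSME1 was at 34.9 against 50.6 FPKM, a log2 ratio of -0.54. The main transcript of PSME1 was not called, and a lesser one, at 5.14 against 8.83 FPKM, had q = 0.0256 in the authors' deposited table. PSME3 was at 75.3 against 90.2 FPKM and was not called.

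**Figure D2:**
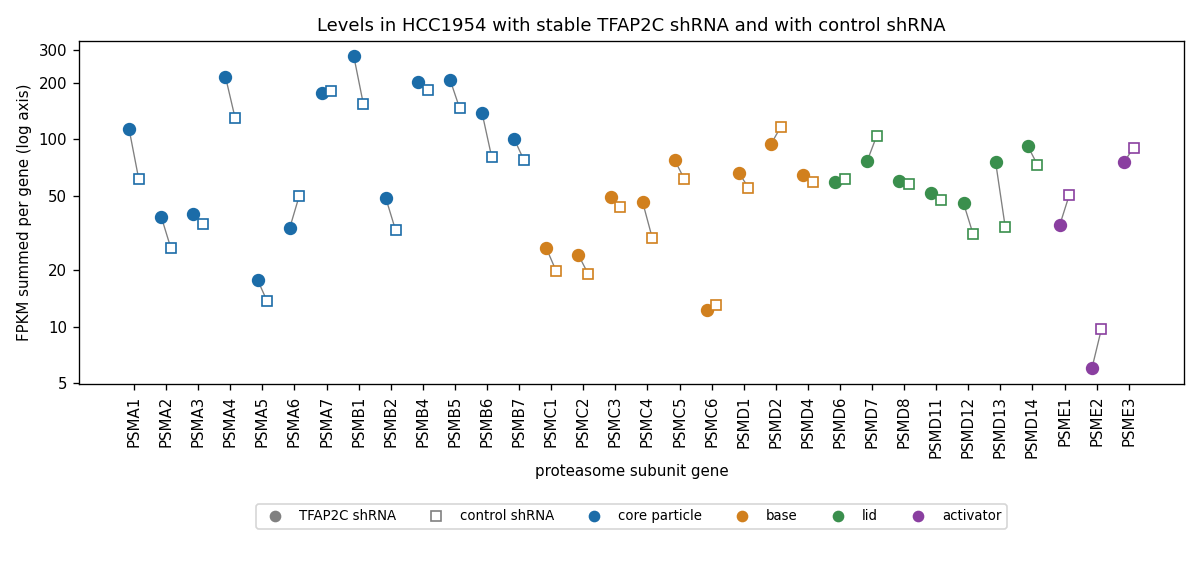
Filled circles are FPKM summed per gene in HCC1954 with TFAP2C shRNA and open squares those with control shRNA, on a log axis, 1 pooled value each, coloured by part. Circles stand above squares in 11 of 13 core particle genes, 7 of 9 base genes and 5 of 7 lid genes, and below them in all 3 activator genes.

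RNA levels of the subunits were spread widely. Over the 29 genes of core particle, base and lid, the highest level was 22.6 times the lowest with TFAP2C shRNA and 13.9 times with control shRNA. The corresponding ratios were 17.9 and 22.1 in SKBR3 with TFAP2C and control siRNA, and 9.55 and 9.38 in HCC1954 with TFAP2C and control siRNA. PSMC6 was the lowest of the 29 in both SKBR3 groups and in both shRNA groups. With the activator genes included, PSME2 was lowest in both shRNA groups and the ratios there were 46.3 with TFAP2C shRNA and 18.7 with control shRNA. Across the 32 genes, levels in TFAP2C shRNA and control shRNA cells had a Spearman correlation of 0.91, against 0.99 and 0.98 between the siRNA groups of SKBR3 and HCC1954. These are correlations across genes, which are not independent replicates, and the groups in each of these pairs share a table and its scaling. Between separately normalized tables, HCC1954 with control shRNA had a correlation of 0.65 with HCC1954 with control siRNA. With SKBR3 control siRNA cells it was 0.76. The median level over the core particle was 113 FPKM with TFAP2C shRNA against 77.5 FPKM with control shRNA, over the base 49.4 against 43.5 FPKM, and over the lid 60.1 against 58.0 FPKM.

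The control siRNA cells of the lines differed in some members, as far as levels of separately normalized tables can be set side by side, and no test was made. PSME2 was at 153 FPKM in HCC1954 with control siRNA and 12.3 FPKM in SKBR3 with control siRNA, a ratio of 12.5, the largest among the 32. PSMD11 followed with 59.7 and 12.6 FPKM, PSMC6 with 35.8 and 8.55 FPKM, and PSMA6 with 205 and 52.5 FPKM. PSMA7, at 184 FPKM in each, and PSMB2, at 22.4 and 21.9 FPKM, were nearly equal. PSMD12 and PSMC1 were the members listed lower in HCC1954 than in SKBR3. These comparisons hold for control siRNA only. In HCC1954 with control shRNA, PSME2 was at 9.76 FPKM, PSMC6 at 13.1 FPKM and PSMA6 at 49.9 FPKM. Each was closer to its SKBR3 level than to its level in HCC1954 with control siRNA, while PSMD11 stayed well above SKBR3. The inducible subunit genes outside the list differed in the same direction as PSME2 between the siRNA controls. In HCC1954 and SKBR3, PSMB9 was at 8.84 and 0.487 FPKM, PSMB8 at 26.0 and 4.40 FPKM and PSMB10 at 129 and 32.6 FPKM. Each was lower in HCC1954 with control shRNA, as given further below, PSMB10 there being under its SKBR3 level.

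The size of the change was compared between treatments by a two-sided z test of the difference of log2 ratios, fitted over all symbols tested in both tables. For shRNA minus siRNA in HCC1954, the change in PSMD13 was larger by 1.25 ± 0.41 (SE) and that in PSMB1 by 0.89 ± 0.33 (SE). The adjusted p was 0.0204 for PSMD13 and 0.0474 for PSMB1. Each standard error reads the deposited statistic as a standard normal score, and the deposited p-values do not follow that reading. PSMA2 with siRNA in HCC1954 had a statistic of -1.01 and a deposited p of 0.014, lower than such a score gives. The standard errors, adjusted p-values and calls of this test are therefore not calibrated. The other 28 members compared were not called, and 4 of 30 had an unadjusted p under 0.05. Over all 8634 symbols 13.8% were called. For SKBR3 minus HCC1954, both with siRNA, 0 of 31 members were called and 0 had an unadjusted p under 0.05, where 0.505% of 8907 symbols were called. The test was also run on simulated data, with noise drawn from its own standard errors and differences set in 200 of 8634 symbols. For shRNA minus siRNA it recovered 7.87% of differences of 1 log2 unit and 43.7% of differences of 2. These shares are over all symbols under that setting and are not estimates for the members. Because the noise came from the same standard errors, the simulation cannot show whether those errors are right. A difference that was not called does not show that the changes were equal.

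Each member was also set beside its neighbours, the 20 expressed genes on either side of it (fewer at chromosome ends). PSMA7 lies on chromosome 20 (60711789 to 60718496, minus strand, GRCh37), the chromosome of TFAP2C. The median over its 40 neighbours was -1.12 with shRNA, beside a log2 ratio of -0.05 for PSMA7 itself. The neighbours of PSMD4 had a median of -0.86, beside 0.13 for the gene, and those of PSMA6 a median of -0.66, beside -0.58. All 13 core particle genes had a log2 ratio above the median of their neighbours, by 0.62 in the median, as did 7 of 9 base genes (0.15), 6 of 7 lid genes (0.27) and 0 of 3 activator genes (-0.24). The share of all expressed genes above their own neighbours was not computed, so these counts have no background. Of the 13 core particle genes, 11 had a log2 ratio above 0. PSME1 and PSME2 lie close together on chromosome 14, and PSMD4 and PSMB4 on chromosome 1, so the neighbours within each pair overlap. Other members on the same chromosome may share neighbours too, so these counts are not of independent genes. With siRNA the neighbours of the members had medians between -0.21 and 0.05 in SKBR3 and between -0.12 and 0.18 in HCC1954. What moved the neighbours was not tested.

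**Figure D3:**
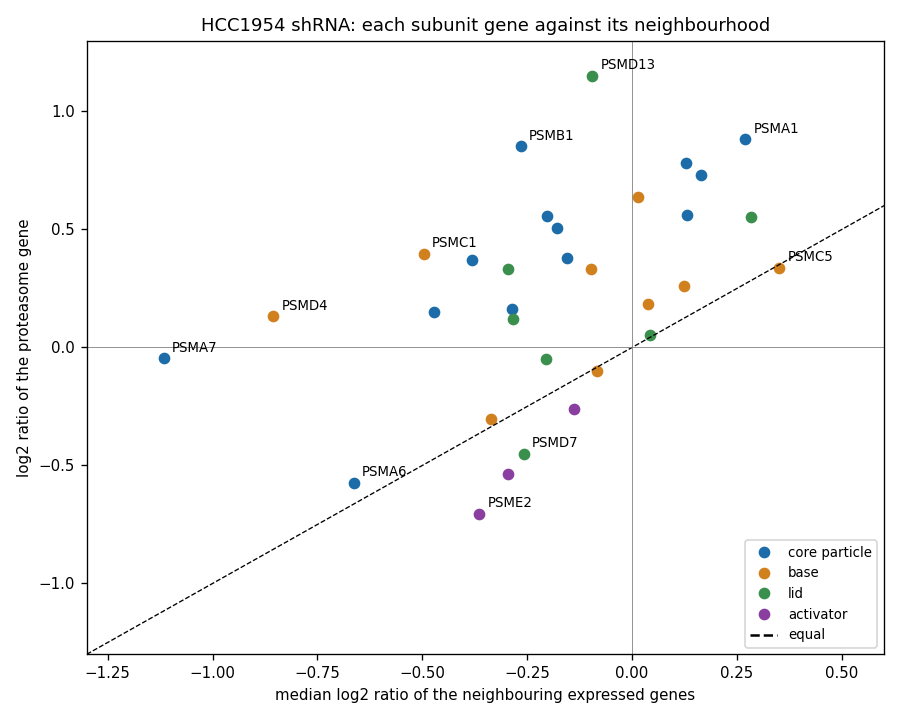
Each point is 1 proteasome subunit gene in HCC1954 with shRNA. The vertical axis is its own log2 ratio of TFAP2C shRNA over control shRNA, the horizontal axis the median log2 ratio of its neighbouring expressed genes, and the dashed line marks equal values. The 13 core particle genes lie above the line, PSMA7 farthest to the left at -1.12, and the 3 activator genes lie below it.

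Further proteasome genes outside the list of 32 included both rises and falls with shRNA. PSMB3 and PSMD3, a beta-ring and a lid subunit that the list of 32 leaves out, were at 75.1 FPKM with TFAP2C shRNA against 53.2 FPKM with control shRNA, which was a rise, and at 96.0 against 97.1 FPKM, which was not called. Of 13 tested genes among 16 further proteasome genes, 2 rose (PSMB3 and PSMD9) and 7 fell with shRNA, 15.4% and 53.8%, beside 36.3% and 39.2% of all tested symbols. PSMB10, an inducible active-site subunit, fell to 13.9 against 24.8 FPKM. PSMB8, another of them, fell to 0.05 against 7.64 FPKM, its called transcript being listed at 0 with TFAP2C shRNA, and PSMB9, at 0.281 against 1.97 FPKM, was not tested. PSMB8 was the gene of this list that rose with siRNA in SKBR3, at 7.69 against 4.40 FPKM (q = 0.0437 in the authors' deposited table). USP14, a deubiquitinase bound to the base, fell to 22.7 against 49.7 FPKM with shRNA, and the proteasome inhibitor gene PSMF1 and the nuclear activator gene PSME4 fell too. PSMD5 and PSMD10, chaperones of base assembly, were at 32.2 against 59.9 FPKM and at 44.0 against 53.9 FPKM, and both fell. PSMD5 also fell with siRNA in SKBR3, to 20.9 against 31.3 FPKM, as did SEM1, the smallest lid subunit gene, to 63.1 against 109 FPKM. In SKBR3 23.1% of 13 tested genes of this list were called, beside 33.3% of all tested symbols. With siRNA in HCC1954 0 of 14 tested genes of this list were called, and 1 had an unadjusted p under 0.05.

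Of 6 assembly chaperone genes 1 rose and 5 fell with shRNA, 16.7% and 83.3%, beside 36.3% and 39.2% of all tested symbols. POMP, which matures the beta rings, rose to 48.9 FPKM with TFAP2C shRNA against 35.2 FPKM with control shRNA. PSMG1 to PSMG4, the chaperones of alpha-ring assembly, all fell: PSMG2 to 33.4 against 77.9 FPKM, PSMG3 to 70.8 against 106 FPKM, PSMG1 to 54.5 against 75.4 FPKM and PSMG4 to 15.2 against 24.1 FPKM. PAAF1, which binds free ATPase subunits, fell to 5.68 against 9.43 FPKM. With siRNA 0 of the 6 were called in either line, and 0 had an unadjusted p under 0.05.

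Of the system that controls proteasome genes, NFE2L1, the NRF1 gene, was at 95.2 FPKM with TFAP2C shRNA against 104 FPKM with control shRNA, and was called in none of the 3 comparisons. DDI2, the protease that activates NRF1, fell to 4.61 against 8.47 FPKM, and NFE2L2, the NRF2 gene, to 74.6 against 101 FPKM. Their partner genes MAFF and MAFK fell to 5.03 against 23.0 FPKM and to 16.1 against 37.6 FPKM, and BACH1, a repressor at the same DNA element, to 10.9 against 41.7 FPKM. In all, 6 of 9 of this list fell with shRNA (66.7%), NGLY1 among them, and 0 rose, beside 39.2% and 36.3% of all tested symbols. The share called lay below the 75.4% of all tested symbols. KEAP1, which marks NRF2 for degradation, was at 50.1 against 14.8 FPKM and was not called. With siRNA in SKBR3 BACH1 and KEAP1 rose and MAFF fell, 33.3% of this list, beside the same 33.3% of all symbols tested there. With siRNA in HCC1954 0 of 9 were called, 2 of them with an unadjusted p under 0.05.

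**Figure D4:**
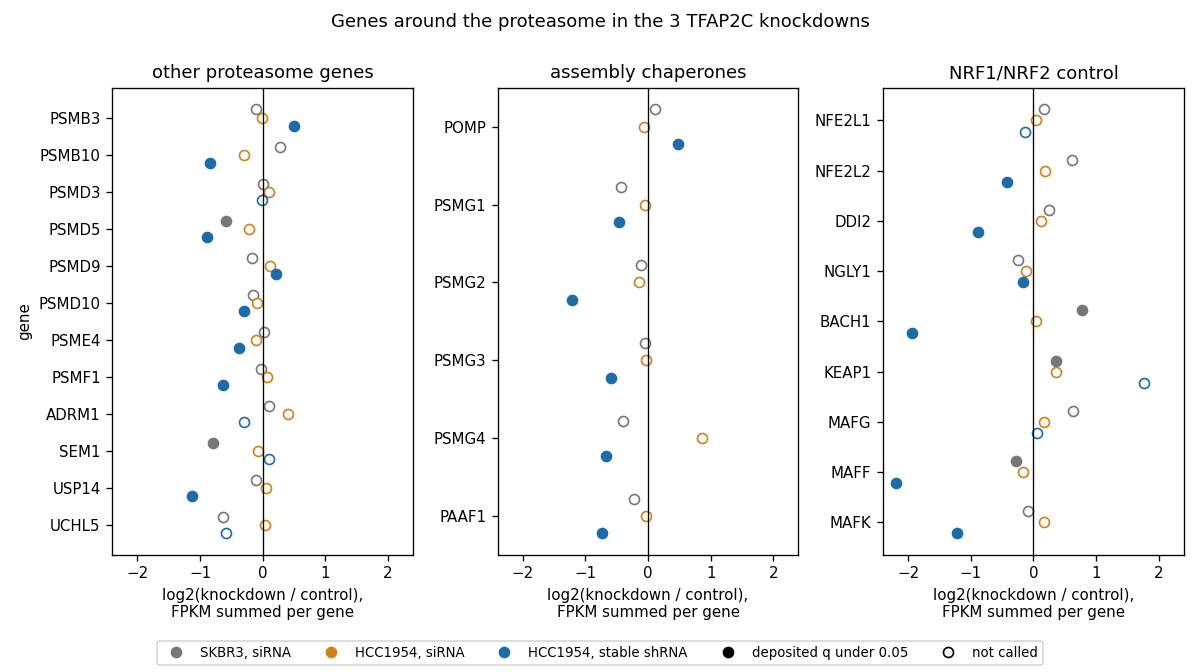
Log2 ratios of knockdown over control FPKM summed per gene (horizontal axis) for other proteasome genes, assembly chaperones and genes of the NRF1 and NRF2 system with at least 1 FPKM in every group, coloured by comparison. Filled points have a deposited q under 0.05. With shRNA 5 of the 6 assembly genes lie left of 0 and POMP right of it, while the siRNA points are open in that panel.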

How the data were processed

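The members follow a rule on names alone, but they and the gene lists were chosen with earlier results of these data known, so none of the lists is an independent test. Per the submitters' processing notes, reads were processed with Bowtie 0.12.2 and Cuffdiff (version not given in the sources used here) on the builds hg19 and GRCh37, and the labels' protocols name a TruSeq RNA kit. The deposited FPKM are the authors' values, 1 per RefSeq accession and group with samples pooled. The test statistic, a score of the authors' tool, and the p-value and q-value are used as deposited. No column holds a single sample, so depth per sample, replicate spread and pairing are unknown. The HCC1954 siRNA table names its columns by siRNA only, and its line was taken from the deposited file's name.

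Of 66321 accessions 65468 matched a symbol in RefSeq's gene table (GRCh38.p14, for names only) and 853 did not. FPKM were summed per symbol, with no pseudocount. Calls used q under 0.05 of the accession whose FPKM averaged highest over 6 groups. The difference test took each standard error as log2 ratio over the deposited statistic, two-sided, with Benjamini-Hochberg adjustment over all symbols tested in both tables. Read as a standard normal score, that statistic does not match the deposited p, so the test is not calibrated. On simulated data it recovered 47.9% of differences of 2 log2 units (SKBR3 minus HCC1954) and called 0.0431% of unchanged symbols. The noise there came from the same standard errors and 200 of 8907 symbols were changed, so both shares belong to that setting. Background medians are over symbols with at least 1 FPKM in both groups. Neighbours were ordered by the deposited loci. All 32 members, the lists of other proteasome, assembly, control and ubiquitin genes, TFAP2C, ERBB2 and cell type markers could be named, and some genes of the ubiquitin list are not reported here. KRT7, KRT19, CDH1, EPCAM, PECAM1 and PTPRC, and the transcripts named beside a gene's main one, were singled out after their values were seen. Of the members, 11 overlap another coding gene and 14 have named pseudogenes in GENCODE, among them PSMC1 with 13 and PSME2 with 6, and reads in those could not be assigned with certainty. Analyses used Python 3.11.15, pandas 2.3.3 and scipy 1.17.1.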

Additional observations from a re-analysis of the deposited data

Results flagged for a closer look

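The difference between stable shRNA and siRNA in HCC1954 passed the test for 2 of 30 members compared, where 13.8% of all 8634 symbols passed. That test took standard errors from the deposited statistic and is not calibrated, as given above. For PSMD13, a lid subunit gene, the log2 ratio was 1.20 with shRNA and -0.04 with siRNA, a difference of 1.25. For PSMB1, a beta-ring gene, it was 0.85 with shRNA and -0.04 with siRNA, a difference of 0.89. These ratios are those of 1 transcript per gene. The treatments also differ in duration, in the use of clones and in their control cells. The depth of knockdown differs too, with a TFAP2C log2 ratio of -4.55 with shRNA and -2.07 with siRNA. None of these can be told apart from the means of knockdown.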

How the results depend on the processing

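No paired analysis was possible because the tables hold 1 pooled value per group, and for the same reason no replicate could be left out. With q under 0.01 in place of 0.05, 0 members fell with siRNA in SKBR3, so the call of PSMA7 was lost, and with shRNA those of PSMA3 and PSMD2 were lost. When any tested transcript could make a call, 5 members fell with shRNA in place of 3, PSMA6 and PSME1 being added. Scaling to summed FPKM, chosen after seeing the data, moved the median log2 ratio in SKBR3 to 0.0897 for all members, 0.126 for the core particle, 0.0568 for the base, 0.0853 for the lid and 0.164 for the activators. With shRNA it moved to 0.40, 0.61, 0.36, 0.22 and -0.44 in the same order. With a standard error from the deposited p, 10 of 30 members differed between shRNA and siRNA in HCC1954, 9 higher and 1 lower (PSMD7) with shRNA, against 2; over all symbols that setting called 49.3%. Medians moved by under 0.1 with a single transcript per gene, a pseudocount of 1 FPKM, centring on all symbols, or PSMD4 counted in the lid. Counts of members that rose stayed within 1.5 times under each setting. The cause of these shifts was not tested.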

Other observations

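Of 18 tested genes that supply ubiquitin and deliver substrates, 5 rose and 10 fell with shRNA in HCC1954, 27.8% and 55.6%, beside 36.3% and 39.2% of all tested symbols. The share called, 83.3%, lay near the 75.4% of all tested symbols. RPS27A, which encodes ubiquitin fused to a ribosomal protein, rose to 113 FPKM with TFAP2C shRNA against 69.9 FPKM with control shRNA. UBB, a polyubiquitin gene, rose to 2098 against 1135 FPKM. UBA1, the main ubiquitin-activating enzyme gene, fell to 75.2 against 172 FPKM, and the alternative enzyme gene UBA6 rose to 16.7 against 13.6 FPKM. VCP, the unfoldase that extracts ubiquitinated proteins, fell to 94.1 against 156 FPKM, as did the shuttle genes RAD23B, to 104 against 178 FPKM, and UBQLN1, to 85.5 against 124 FPKM. With siRNA in SKBR3, 1 of 18 rose (ZFAND5, to 53.0 against 35.6 FPKM) and 2 fell (UBB and VCP). These were 5.56% and 11.1%, beside 12.3% and 21.0% of all symbols tested there. With siRNA in HCC1954 0 of 16 tested were called, and 0 had an unadjusted p under 0.05.

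Other large complexes are given for scale. Of 77 tested cytosolic ribosomal protein genes 66 rose and 5 fell with shRNA, with a median log2 ratio of 0.94, and of 74 mitochondrial ribosomal protein genes 34 rose and 19 fell, with a median of 0.22, beside 0.30 for the proteasome genes. The shares that rose were 85.7% and 45.9%, beside 36.3% of all tested symbols. With siRNA in SKBR3, 30 of 75 mitochondrial and 19 of 79 cytosolic ribosomal protein genes fell, 40.0% and 24.1%, and 1 of 32 proteasome genes did, beside 21.0% of all tested symbols, so that the cytosolic share lay near the background. With siRNA in HCC1954 0 of 82 cytosolic and 0 of 77 mitochondrial ribosomal protein genes were called, with 3 and 6 at an unadjusted p under 0.05. No test of these differences between lists was made.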
